A study of Mus musculus with 2 samples.

Results

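The cells described here were 700 of 6466 cells without a pluripotency programme that had the highest expression of 6 mitotic genes on day 16 of reprogramming of mouse fibroblasts toward induced pluripotent stem cells. They were chosen on the deposited log values in 2 steps. A cell first had to have fewer than 3 of the 5 pluripotency genes Utf1, Tdgf1, Tdh, Nanog and Dppa4 above 0, which 6466 of all 7023 cells did and 557 did not. Each of the genes Cenpa, Cdc20, Ube2c, Cenpf, Knstrn and Cenpe was then expressed as a z-score over all cells, the 6 z-scores were averaged, and the 700 gated cells with the highest mean became the mitotic cells. The other 5766 gated cells were the comparison. Because these genes chose the cells, and because every other gene was read in the same cells, the differences between mitotic and other cells are given as values in each library, with no test.

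The study followed mouse embryonic fibroblasts that carry STEMCCA, a doxycycline-inducible cassette of the factors Pou5f1, Sox2, Klf4 and Myc, and used independent transgenic sources of it. Both libraries were labelled day 16 reprogramming intermediates and formed 1 group, replicate 1 and replicate 2, with no untreated or other time point beside them. All cells had been kept in mouse embryonic stem cell medium with LIF, ascorbic acid and doxycycline and were not sorted, so day 16 cultures held cells that had and had not reached pluripotency. The labels do not say which transgenic source each library came from or whether they were separate cultures, so the 2 values of each measurement show the spread between libraries and nothing more. Gated cells had a median of 15189 unique molecular identifiers (UMIs, 1 per captured RNA molecule) in replicate 1 and 13641 in replicate 2. There were 12 cell barcodes that occurred in both libraries, and 4 of the mitotic cells carried one of them.

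A dividing cell copies its DNA in S phase, prepares for division in G2 and separates its chromosomes in mitosis. Cyclins of the A and B types activate the kinase Cdk1 to enter mitosis, kinetochore proteins at the centromere attach chromosomes to the spindle, and the anaphase-promoting complex then marks cyclin B and securin for destruction. RNA of these genes accumulates through G2 and falls after division, so RNA levels do not separate a cell in G2 from one in mitosis, and the word mitotic is used here for both. Proliferation is a known early requirement of reprogramming, and fibroblasts that stop dividing or enter senescence are known to reprogram poorly.

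The 6 selecting genes all act at the centromere, the spindle or the anaphase-promoting complex. Cenpa is the histone H3 variant that marks centromeres, Cenpf and Cenpe act at the kinetochore, and Knstrn, also called kinastrin, is a spindle and kinetochore protein. Cdc20 activates the anaphase-promoting complex, and Ube2c is the ubiquitin-conjugating enzyme that works with it. In the GRCm38 assembly the GENCODE annotation places Cenpa at chr5:30666777-30674830, Cdc20 at chr4:118432901-118437352, Ube2c at chr2:164769898-164778822, Cenpf at chr1:189640606-189688086, Knstrn at chr2:118814003-118853957 and Cenpe at chr3:135212537-135273611. All are protein-coding genes, and Cdc20 and Cenpf lie on the minus strand.

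Genes of G2 and mitosis are known to share promoter elements, the CHR (cell cycle genes homology region) and the CCAAT box, and the promoters of the mitotic genes were searched for them. The windows were those of RefSeq on GRCm38.p6, 300 bases from 250 before a gene's start. A CHR was TTTGAA or TTCGAA and a CCAAT box was CCAAT, on either strand, so that TTCAAA and ATTGG also count. The 120 bases before the start of 6 genes are shown because they hold the range found, from a CHR next to CCAAT boxes to no match. Capitals mark matches. Cdc20 lies at chr4:118437344-118437463 on the minus strand, Ube2c at chr2:164769809-164769928 on the plus strand, Mki67 at chr7:135716380-135716499 on the minus strand, Ccnb1 at chr13:100786487-100786606 on the minus strand, Ccnb2 at chr9:70421555-70421674 on the minus strand and Knstrn at chr2:118813883-118814002 on the plus strand.
Cdc20: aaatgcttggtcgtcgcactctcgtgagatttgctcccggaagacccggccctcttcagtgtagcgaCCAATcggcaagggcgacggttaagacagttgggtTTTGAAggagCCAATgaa
Ube2c: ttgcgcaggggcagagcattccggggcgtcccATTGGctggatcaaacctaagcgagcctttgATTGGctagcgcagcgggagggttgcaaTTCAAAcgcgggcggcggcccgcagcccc
Mki67: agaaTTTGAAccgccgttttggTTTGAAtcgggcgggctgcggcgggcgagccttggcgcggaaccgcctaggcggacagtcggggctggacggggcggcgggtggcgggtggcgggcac
Ccnb1: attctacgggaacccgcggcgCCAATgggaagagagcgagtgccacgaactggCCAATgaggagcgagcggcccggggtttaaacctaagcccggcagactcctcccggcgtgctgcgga
Ccnb2: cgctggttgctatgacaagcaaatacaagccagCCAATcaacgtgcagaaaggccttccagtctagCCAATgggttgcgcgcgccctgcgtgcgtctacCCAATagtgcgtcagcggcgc
Knstrn: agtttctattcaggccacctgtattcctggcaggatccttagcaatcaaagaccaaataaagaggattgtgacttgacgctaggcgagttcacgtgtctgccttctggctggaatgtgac
Positions count back from the start, and a match is placed by its first base. The CHR of Cdc20 began at -18 and that of Ube2c at -29. Mki67 had a pair of CHR matches at positions -116 and -98, with its CCAAT boxes farther upstream. Ccnb2 had 3 CCAAT boxes in this stretch, at -87, -54 and -21, and its CHR matches lay outside it, at -167 and 5. Ccnb1 had CCAAT boxes at -99 and -67 and no CHR in the window. The 300 bases of Knstrn had no match, which says only that these letters are not in this window.

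The score had no natural gap at the point that separated the mitotic cells. The last mitotic cell scored 1.139 and the first cell left out 1.135. The 10th cell from the boundary scored 1.15 on the inside and 1.11 on the outside. Within 0.25 of the last mitotic cell's score lay 116 mitotic cells above and 144 other cells below. At the bottom of the range 2769 gated cells, 42.8%, had none of the 6 genes. The mitotic cells are therefore the upper range of a continuous score and not a separate type of cell.

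**Figure D1:**
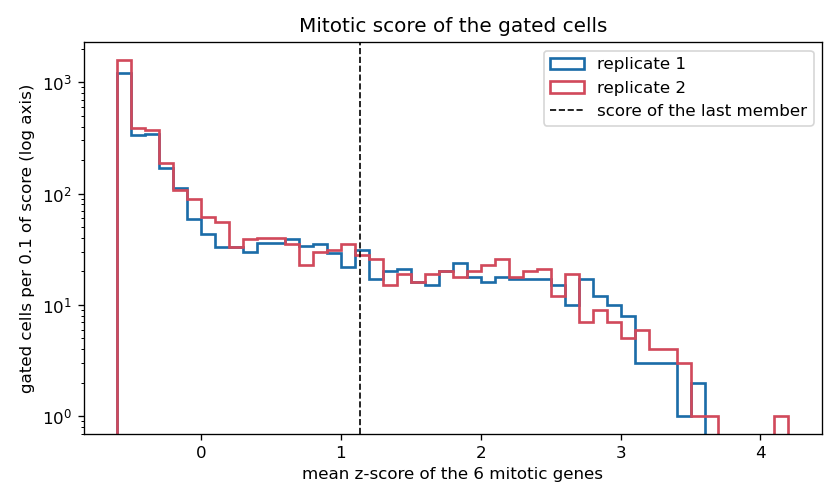
Number of gated cells (log axis) in steps of 0.1 of the mean z-score of the 6 mitotic genes, for replicate 1 and replicate 2, with the score of the last mitotic cell, 1.139, as a dashed line. Both libraries have a peak of cells with none of the genes and a long tail that runs through the dashed line without a gap.

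Both libraries gave mitotic cells in similar numbers. Replicate 1 had 343 of 2949 gated cells, 11.6% (exact 95% interval 10.5% to 12.8%), and replicate 2 had 357 of 3517, 10.2% (9.17% to 11.2%). The shares differed by -1.48 percentage points, replicate 2 minus replicate 1, and the intervals, which cover counting error only, overlapped. All 6 genes were detected in 289 mitotic cells of replicate 1 and 282 of replicate 2, and no mitotic cell had fewer than 4. Among the other gated cells, 66 of 2606 in replicate 1 and 74 of 3160 in replicate 2 had all 6 with a lower mean score.

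Levels are given as UMIs per 10000 UMIs of a cell, averaged over the cells of a library. Cenpa was at 5.55 and 5.57 in the mitotic cells of the first and second library, and at 0.349 and 0.372 in the other gated cells. Ube2c was at 5.78 and 5.85 against 0.348 and 0.326, and Cdc20 at 2.95 and 2.77 against 0.128 and 0.123. These values follow from the selection. For all 3 genes the library means of a group lay close together.

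The label was checked against 11 genes of G2 and mitosis that took no part in the selection, namely Plk1, Ccnb1, Ccnb2, Aurka, Hmmr, Tpx2, Birc5, Cdk1, Mki67, Top2a and Bub1. All 11 were at least 1.5-fold higher in the mitotic cells of both libraries, as were 5.79% of all genes tested (those with a mean level of at least 0.1), by a mean log2 fold of 1.62 (Bub1) to 3.23 (Ccnb1). Only 6 of them reached the minimum level in the other gated cells, and the other 5 (Plk1, Ccnb1, Aurka, Hmmr and Bub1) were tested only because of their level in mitotic cells, so the count describes the cells and is no test of the label. Genes outside the gate were read for the other side of the label. Pou5f1, a core pluripotency factor, was at 0.0638 and 0.145 in mitotic cells and at 0.0861 and 0.154 in the other gated cells, but at 8.77 and 10.5 in cells outside the gate with a mitotic score as high. Sox2 was at 0.0639 and 0.0139 in mitotic cells and 2.33 and 2.78 in those cells. Pou5f1 and Sox2 are also factors of the doxycycline-inducible cassette, and whether RNA from the cassette is counted in these levels was not tested. Of 30 further pluripotency genes 21 were below the minimum level, and of the 9 tested only L1td1 passed 1.5-fold in both libraries. L1td1, an RNA-binding protein of embryonic stem cells, was at 1.39 and 1.23 against 0.743 and 0.677. The summed level of the 30 genes was 2.92 and 3.26 in mitotic cells, 2.34 and 2.59 in other gated cells and 63.8 and 79.6 in those outside the gate. Lin28b and Nodal had no UMI in any mitotic cell. Some mitotic cells still had traces of the gating genes: 131 and 109 had 1 of the 5 above 0, and 27 and 21 had a pair of them.

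Mitotic cells gave more UMIs than the others. In replicate 1 their median was 21143 UMIs against 14487 in the other gated cells, and in replicate 2 it was 20290 against 13052, a ratio of 1.51 ± 0.067 (SD, n = 2 libraries). They also had more detected genes, with medians of 4026 and 3860 against 3175 and 2844. When every cell was thinned at random to 4000 UMIs these medians came to 1466 and 1420 against 1400 and 1339, a much smaller gap. Mitochondrial RNA was a median of 3.61% and 3.71% of UMIs in mitotic cells and 4.12% and 4.14% in the others. A gene with the same number of UMIs in every cell would thus read as lower per 10000 UMIs in mitotic cells, which bears on every lower gene below. Doublets among these deep cells were not tested for.

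Across the genome, the genes higher in mitotic cells outnumbered the lower ones. Of 7132 genes with a mean level of at least 0.1, gating genes left out, 413 (5.79%) were at least 1.5-fold higher in both libraries and 233 (3.27%) at least 1.5-fold lower. Folds are on the log2(level + 0.1) scale, which understates the change of low genes, and the median over all 7132 was 0.03. The minimum level counts the mitotic cells too, so a gene present only there could pass it: with the minimum set on the other cells alone, 307 genes were higher and 256 lower. Of the genes tested in the division lists below, the other gated cells alone reached the minimum for 16 of 28 G2 and mitosis regulators (15 higher), 18 of 33 kinetochore and checkpoint genes (15 higher), 23 of 44 spindle genes (15 higher), 19 of 23 chromosome structure genes (13 higher) and 31 of 48 genes of the G2/M scoring list (31 higher). The counts of these lists are therefore descriptions. The counts of every list below stand beside the 5.79% higher and 3.27% lower of all genes. When the other cells were weighted to the UMI depths of the mitotic cells, 282 genes were higher and 101 lower, and of the original 413 and 233 genes 275 and 92 kept their call. Without replicate 2, that is in replicate 1 alone, 406 genes were lower, and in replicate 2 alone 283.

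Genes that direct entry into mitosis were several-fold higher, and Ccnb1 had the highest fold of all genes that took no part in the selection. Ccnb1, the cyclin B1 subunit of the mitotic kinase, was at 1.64 and 1.6 in mitotic cells against 0.0812 and 0.0857 in the others, a log2 fold of 3.23 ± 0.05 (SD, n = 2). Its partner in the same step, cyclin B2 (Ccnb2), was at 2.36 and 2.28 against 0.173 and 0.179, and cyclin A2 (Ccna2), which acts in S phase as well, at 2.05 and 2.17 against 0.207 and 0.182. Cdk1, the kinase they bind, was less far apart, at 1.6 and 1.37 against 0.259 and 0.219. All of these were several-fold apart in both libraries. The kinases Plk1 and Aurka, which act at centrosomes and the spindle, had levels of 0.97 and 0.935 against 0.061 and 0.057, and of 1.12 and 1.16 against 0.0879 and 0.0682. Foxm1, the transcription factor that activates many of these genes, was low throughout, at 0.321 and 0.31 against 0.0659 and 0.0457. Of 33 G2 and mitosis regulators in the data, 28 passed the minimum level and 27 of them were higher, with a median log2 fold of 1.92, and the one that did not pass 1.5-fold was Cdc25a, a phosphatase best known for its role in S-phase entry, at 0.20.

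Kinetochore and checkpoint genes were higher as a group. Of 40 in the data, 33 were tested and 29 were higher, none lower, with a median log2 fold of 1.51. Spc25, a subunit of the outer kinetochore complex that grips microtubules, was at 1.53 and 1.56 against 0.221 and 0.191. Sgol1 (shugoshin), which protects the cohesion of sister centromeres, was at 0.916 and 0.934 against 0.132 and 0.136. Both were several-fold apart in their library means, which say nothing of overlap between single cells. The checkpoint gene Bub3 was at 2.01 and 2.04 against 0.654 and 0.642. The 4 tested genes that did not reach 1.5-fold in each of the libraries were Mad1l1, Zwint, Mis12 and Cenpb, at 0.48, 0.10, 0.61 and 0.17 on the log2 scale.

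Spindle, motor and cytokinesis genes gave 36 higher of 44 tested, with a median of 2.00. Nusap1, a microtubule-binding protein of the spindle, was at 3.21 and 3.3 against 0.272 and 0.263. Birc5 (survivin) and Cdca8 (borealin) belong to the chromosomal passenger complex with the kinase Aurkb. Birc5 was at 3.53 and 3.75 against 0.397 and 0.347, and Cdca8 at 2.26 and 2.39 against 0.258 and 0.242. Prc1, which bundles the microtubules of the dividing spindle, was at 2.15 and 2.35 against 0.214 and 0.192. The genes of this list that stayed short of the limit were mainly motors of cargo transport, such as Kif5b at 0.33, Kif1b at 0.21, Kif1c at -0.06 and Kif3a at -0.33, beside the spindle pole protein Numa1 at 0.38.

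Chromosome structure genes were mostly higher, with cohesin and its regulators mixed. All 8 condensin genes tested (Smc2, Smc4, Ncapd2, Ncapd3, Ncapg, Ncapg2, Ncaph and Ncaph2) were higher, and Smc4 was at 3.67 and 3.91 against 0.766 and 0.787. Top2a, the topoisomerase that untangles chromosomes, was at 6.76 and 6.17 against 0.997 and 0.799, and Mki67, the proliferation marker that coats mitotic chromosomes, at 2.85 and 3.09 against 0.36 and 0.307. Among cohesin and its regulators Smc1a, Rad21, Esco2 and Cdca5 passed the limit, Esco2 and Cdca5 with log2 folds of 1.28 and 1.19. Smc3, Stag1, Stag2, Wapl, Pds5a and Pds5b did not, with log2 folds of 0.55, 0.49, 0.02, 0.31, 0.32 and 0.34. In all 17 of 23 were higher.

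Genes of the nuclear envelope and chromatin were higher in 20 of 23 cases, with a median of 1.02, and in 13 with the depth-weighted comparison. The other gated cells alone reached the minimum level for 20 of these 23 genes, of which 17 were higher, so the count is a description. Lmnb1, a B-type lamin, was at 1.06 and 0.888 against 0.233 and 0.188. Lmna, the A-type lamin, stayed at a log2 fold of 0.45. H2afz, a histone H2A variant, was abundant in both groups, at 42.3 and 43.5 against 12.4 and 13.3. Arl6ip1, a membrane protein of the endoplasmic reticulum, was at 4.51 and 5.27 against 1.07 and 1.26. Among tubulins and stathmin 7 of 15 were higher. Tubb4b was at 5.13 and 4.67 against 1.15 and 0.959, Tubb6 at 2.76 and 3.03 against 0.61 and 0.566, and Tuba1a was at 0.16 on the log2 scale. Tubulin and histone genes have near-identical copies, so how reads were split among them is uncertain.

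Subunits of the anaphase-promoting complex differed less than its activator Cdc20 and its enzyme Ube2c, which were selecting genes. Of 14 subunits 3 were higher, 21.4% beside the 5.79% of all genes, and the median log2 fold was 0.28 beside 0.03. The highest was Anapc15 at 0.53 and 0.457 against 0.263 and 0.206, followed by Cdc27 at 0.26 and 0.236 against 0.116 and 0.105 and Anapc5 at 2.04 and 1.98 against 1.28 and 1.28. With the depth-weighted comparison 1 of the 14 passed. Its substrate Pttg1 (securin), which holds back the separation of sister chromatids until anaphase, was at 1.27 and 1.64 against 0.235 and 0.286.

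**Figure D2:**
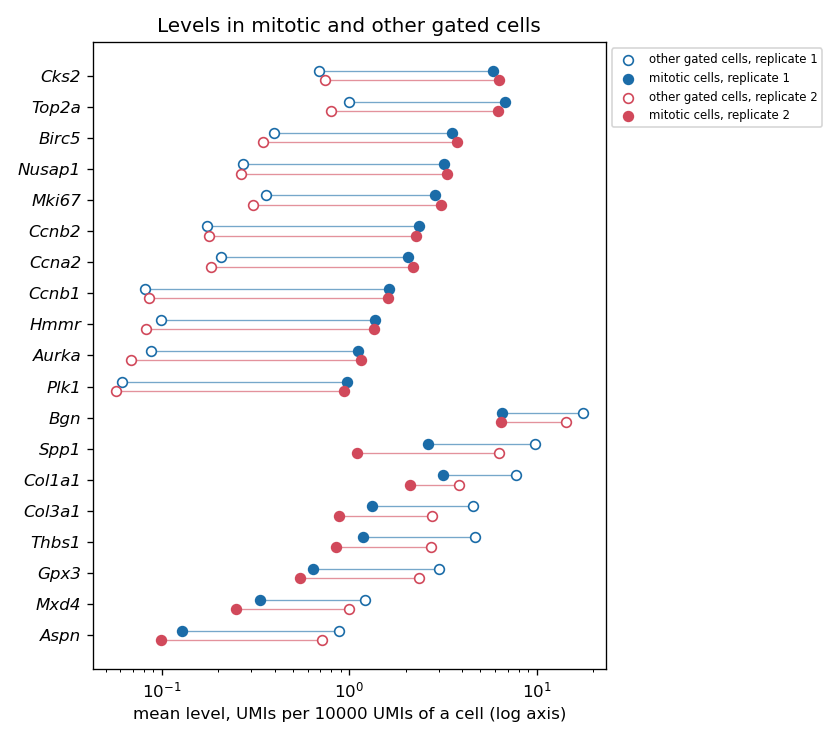
Mean level in UMIs per 10000 UMIs (log axis) of 11 genes of division and 8 genes that were lower, in mitotic cells (filled) and other gated cells (open) of replicate 1 and replicate 2. Ccnb1 runs from 0.0812 and 0.0857 to 1.64 and 1.6, and Spp1 in the other direction, from 9.76 and 6.26 to 2.62 and 1.1.

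DNA replication genes were less far apart. The S-phase list had 34 of 43 genes at the minimum level, of which 16 were higher and 1 (Ung, a DNA repair glycosylase) lower, with a median log2 fold of 0.60 against 2.08 for the G2/M list used in cell-cycle scoring, in which all 48 genes tested were higher. Rrm2, a subunit of ribonucleotide reductase, was at 1.38 and 1.1 against 0.375 and 0.292, and Tyms (thymidylate synthase) at 0.879 and 0.811 against 0.328 and 0.309. Pcna, the clamp of DNA polymerase, was at 0.587 and 0.458 against 0.356 and 0.294. Mcm6, part of the replicative helicase, was at 0.596 and 0.636 against 0.542 and 0.519, nearly level. With the depth-weighted comparison 3 of the 34 genes passed, and 46 of the 48 G2/M genes did.

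Of 12 tested cyclins, kinases and E2F genes of G1, 1 was higher and 1 lower, with a median log2 fold of 0.04, near the shares over all genes. Ccnd2, a D-type cyclin that answers to growth signals, was lower, at 6.15 and 5.33 against 10.3 and 8.45. Ccnd1 was at 1.41 and 1.32 against 1.83 and 1.68, short of 1.5-fold. Dbf4, the activator of the kinase that fires replication origins, was higher, at 0.991 and 0.968 against 0.193 and 0.194. The Cdk inhibitors went both ways. Cdkn2c and Cdkn2d, inhibitors of the D-cyclin kinases, were higher, Cdkn2c at 0.994 and 0.884 against 0.196 and 0.188 and Cdkn2d at 0.95 and 1.11 against 0.275 and 0.285. Cdkn1c was lower, at 0.253 and 0.45 against 0.844 and 1.1. Cdkn2a, whose products restrain reprogramming in fibroblasts, was at 0.87 and 0.581 against 1.41 and 0.996, and its neighbour Cdkn2b at 0.238 and 0.225 against 0.526 and 0.441. Cdkn1a, the p53 target p21, was at 2.71 and 2.59 against 3.49 and 3.42, and Trp53 at 1.17 and 0.876 against 0.892 and 0.853, neither past 1.5-fold. In this list 2 of 23 genes were higher and 7 lower, beside 5.79% and 3.27% of all genes. The higher count was thus near the share of all genes. With the depth-weighted comparison 2 were higher and 1 lower. Cdkn1c, Cdkn2a and Cdkn2b then had log2 folds of -0.76, -0.55 and -0.53.

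Many genes of the extracellular matrix and of secreted proteins were lower. Of 25 mesenchymal genes tested 12 were lower and none higher, with a median log2 fold of -0.76. Of 16 genes for factors secreted by senescent cells 12 were lower, with a median of -0.92. Among all genes tested 3.27% were lower. Of the 15 lowest genes 4 belong to these 2 lists. Bgn, a matrix proteoglycan, was at 6.5 and 6.41 in mitotic cells against 17.5 and 14.3. The collagen genes Col1a1 and Col3a1 had levels of 3.16 and 2.11 against 7.79 and 3.85, and of 1.33 and 0.879 against 4.59 and 2.75. Thbs1, a matrix glycoprotein, was at 1.19 and 0.852 against 4.67 and 2.71. Aspn, another small proteoglycan, was at 0.127 and 0.0994 against 0.879 and 0.714, and Gpx3, a secreted glutathione peroxidase, at 0.641 and 0.546 against 3.01 and 2.36. Each of these was at least 1.5-fold lower in both libraries. With the depth-weighted comparison 8 of the 25 mesenchymal and 9 of the 16 secreted genes were lower, among them Bgn, Col1a1, Col3a1 and Igfbp4. In that comparison 101 genes were lower in all.

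Several other fibroblast genes did not pass the limit in both libraries. Vim, the intermediate filament of mesenchymal cells, was at 13.8 and 14.5 in mitotic cells against 16.2 and 14.6, and Thy1, a fibroblast surface protein, at 2.43 and 2.75 against 3.54 and 2.84. The transcription factors Prrx1, Zeb1 and Twist1 had log2 folds of -0.04, -0.04 and -0.20. Contractile genes differed by library: Tagln was at 3.83 and 3.59 against 7.76 and 4.75, and Mylk at 0.168 and 0.135 against 0.619 and 0.168, so that both passed the limit in replicate 1 alone. Of 17 genes of the contractile list 2 were lower in both libraries, Thbs1 and Itga11, beside 3.27% of all genes. With the depth-weighted comparison 3 of the 17 were lower, and the median log2 fold of the list went from -0.27 to -0.46.

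Of the 233 lower genes 230 also had fewer UMIs per cell in the mitotic cells of both libraries and 3 did not. With the limit applied to UMIs per cell, 60 genes were at least 1.5-fold lower. Bgn had 13.4 and 13.5 UMIs per mitotic cell and 23.9 and 17.9 per other cell. Spp1, an osteopontin gene that led the list with a log2 fold of -2.13 ± 0.39 (SD, n = 2), had most of its UMIs in few cells. In mitotic cells its level was 2.62 and 1.1, and 27 cells of replicate 1 and 25 of replicate 2 had 3 or more Spp1 UMIs and held 92.9% and 85.9% of them. These were 7.87% and 7.003% of the mitotic cells, beside 11.4% and 8.92% of the other gated cells. Without the 1 mitotic cell with the most Spp1 in each library the levels were 1.93 and 0.784.

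Immediate-early genes, which respond to growth factors and to handling of cells, were lower in 6 of 17 cases and higher in none. Their median was -0.42, and 3.27% of all genes were lower. Junb was at 0.896 and 0.885 against 1.55 and 1.75, and Egr1 at 0.735 and 0.925 against 1.33 and 1.62. Fos was at 0.611 and 1.55 against 1.2 and 2.24, past the limit in replicate 1 alone. With the depth-weighted comparison only Ctgf of this list stayed below the limit.

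Groups that measure the general state of the cell lay near 0. Of 81 ribosomal protein genes none passed the limit either way, with a median log2 fold of -0.03, and none of 13 mitochondrially encoded genes did, with a median of -0.15. Of 16 glycolysis enzymes 1 was lower, beside 3.27% of all genes, and the median was -0.02. It was Aldoc, at 0.176 and 0.217 against 0.541 and 0.752. Macrophage, endothelial and neural markers were scarce. The summed level of 11 macrophage markers was 0.0763 and 0.0585 in mitotic cells against 0.422 and 0.862, with Ptprc at 0. That of 9 endothelial markers was 0.242 and 0.247 against 0.19 and 0.185, and that of 10 neural markers 0.606 and 0.647 against 0.787 and 0.665. Lyz2, a lysozyme of macrophages, gave 4 and 7 UMIs in all mitotic cells.

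**Figure D3:**
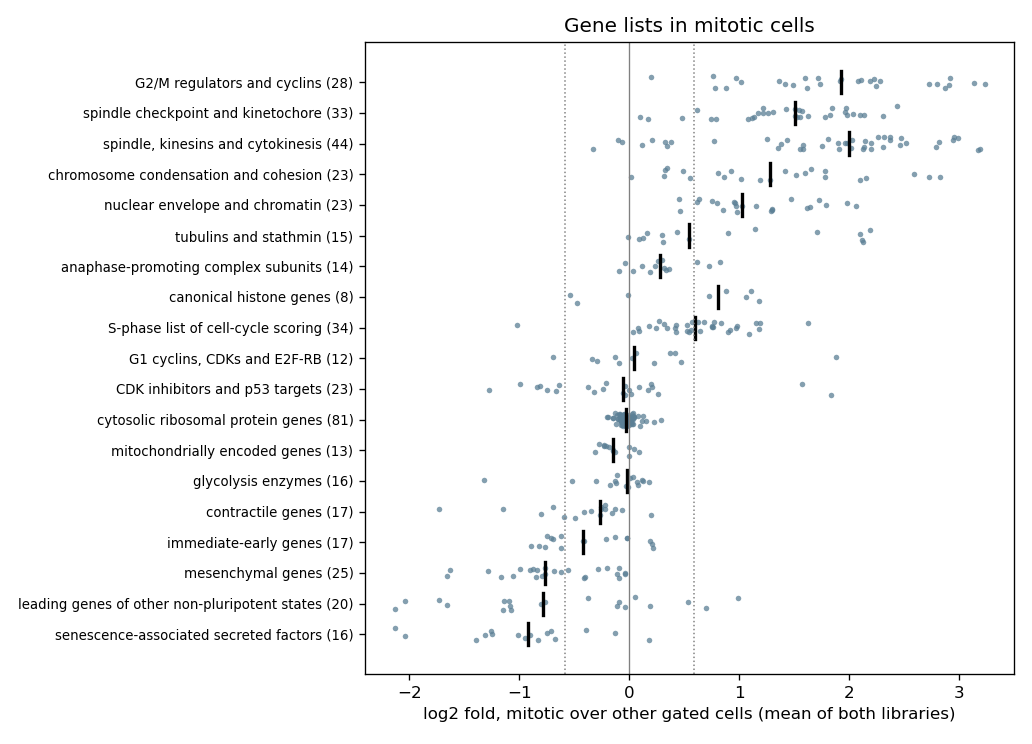
Log2 fold of mitotic over other gated cells, mean of both libraries, for each tested gene (points) of 19 gene lists, with the number of genes in parentheses, list medians as black bars and 1.5-fold as dotted lines. The lists of division genes lie to the right, with medians up to 2.00, and the mesenchymal and secreted lists to the left, at -0.76 and -0.92.

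A further comparison set the mitotic cells beside the 700 other gated cells with the highest S-phase score, 353 in replicate 1 and 347 in replicate 2, chosen by the mean z-score of the 43 S-phase genes. Their depth was closer, with medians of 19255 and 19129 UMIs. These S-phase cells were picked from below the mitotic cut and by replication genes. Higher division genes and lower replication genes in mitotic cells therefore follow in part from the selection and are given as description. With the S-phase list also left out, 126 of 7064 genes (1.78%) were at least 1.5-fold higher in the mitotic cells of both libraries and 50 (0.708%) lower. Ccnb1 led with 1.64 and 1.6 against 0.248 and 0.271 in S-phase cells, followed by Ccnb2 with 2.36 and 2.28 against 0.398 and 0.466. Cdkn3, a phosphatase that acts on Cdk1, was at 0.597 and 0.433 against 0.0643 and 0.049, and Pttg1 at 1.27 and 1.64 against 0.272 and 0.353. Cdkn3 reached the minimum level only through the mitotic cells. By contrast Top2a was at 4.77 and 3.99 in S-phase cells and Mki67 at 1.66 and 1.5, much nearer the mitotic values.

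Replication genes were among those lower in mitotic than in S-phase cells. E2f1, a transcription factor that turns on S-phase genes, was at 0.457 and 0.382 in mitotic cells against 1.73 and 1.47. Cdt1, which loads the replicative helicase, was at 0.214 and 0.167 against 0.616 and 0.585, Mcm3 at 0.356 and 0.297 against 0.971 and 0.848, and Ccne1 (cyclin E1) at 0.177 and 0.15 against 0.413 and 0.431. Of the 34 S-phase genes, which chose the comparison cells, all were lower in mitotic cells, Mcm6 by a log2 fold of -1.39.

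Matrix genes were closer between mitotic and S-phase cells. None of 24 mesenchymal genes passed the limit between them, where only 1.78% of all genes were higher and 0.708% lower. Their median was -0.22, beside 0.01 over all genes. Bgn was at 6.5 and 6.41 in mitotic cells, 9.89 and 6.87 in S-phase cells and 18.7 and 15.2 in the 5066 remaining gated cells. Mxd4, a MYC-antagonist of resting and differentiating cells, was at 0.334 and 0.25, at 0.346 and 0.294 and at 1.35 and 1.08. Cdkn2a was at 0.87 and 0.581, at 0.703 and 0.539 and at 1.52 and 1.05. The values are set side by side without a test.

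**Figure D4:**
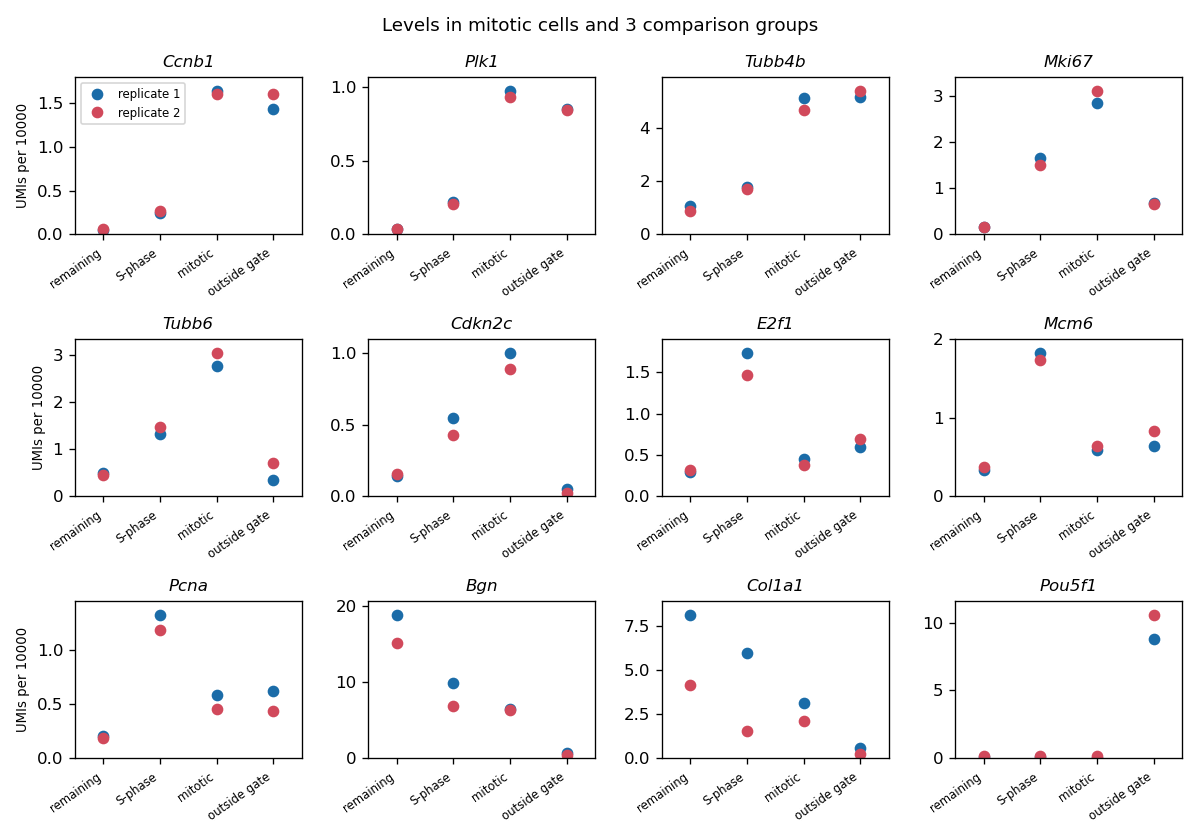
Mean level in UMIs per 10000 UMIs of 12 genes in the remaining gated cells, the S-phase cells, the mitotic cells and the cells outside the pluripotency gate with an equal or higher mitotic score, with 1 point for each library. Ccnb1 and Plk1 are high in both mitotic groups, Mcm6, Pcna and E2f1 in S-phase cells, Bgn and Col1a1 in the remaining cells, and Pou5f1 outside the gate.

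Cells outside the gate that scored at least as high, 49 in replicate 1 and 129 in replicate 2, had 3 or more of the 5 pluripotency genes and came from the same libraries. These had still more UMIs, with medians of 31313 and 28849. Of 6916 genes 1370 (19.8%) were higher in the non-pluripotent mitotic cells of both libraries and 827 (12%) lower. Of 49 tested genes of the G2/M list 11 were higher, 22.4% beside the 19.8% of all genes, and none lower, with a median log2 fold of 0.33 against 0.07 over all genes. Ccnb1 was at 1.43 and 1.61 and Plk1 at 0.854 and 0.847 outside the gate, close to the 1.64 and 1.6 and the 0.97 and 0.935 of the mitotic cells.

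The share of G2/M genes that were higher was thus near that of all genes, and the division genes with the largest differences were picked after their values were seen. Mki67 was at 2.85 and 3.09 in the non-pluripotent mitotic cells and 0.681 and 0.656 outside the gate, and Tubb6 at 2.76 and 3.03 against 0.349 and 0.709. Foxm1 was at 0.321 and 0.31 against 0.101 and 0.0906, and Fam64a, a mitotic regulator, at 1.41 and 1.47 against 0.649 and 0.559. The inhibitors Cdkn2c and Cdkn2d had levels of 0.994 and 0.884 against 0.0523 and 0.0255, and of 0.95 and 1.11 against 0.245 and 0.256. In the other direction Mybl2, a transcription factor of cell-cycle genes, was at 0.299 and 0.258 against 2.4 and 3.27, and H2afx, a histone variant of DNA repair, at 2.14 and 1.91 against 3.9 and 3.47. The D-type cyclins were lower outside the gate, with Ccnd2 at 1.23 and 0.573 and Ccnd1 at 0.66 and 0.525. All 21 tested mesenchymal genes were higher in the non-pluripotent cells, Vim at 13.8 and 14.5 against 1.39 and 1.18. The depth of the groups differed throughout, and its part in these differences was not tested.

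Within the mitotic cells, some replication genes were lower where the mitotic score was higher. Split into 4 groups of about equal size by score, Ccnb1 was at 0.91 and 0.791 in the lowest group and 2.61 and 2.98 in the highest, and Cks2, a Cdk1 subunit, at 4.14 and 4.57 and at 7.96 and 8.19. From the lowest to the highest group Pcna went from 0.766 and 0.636 to 0.361 and 0.244, and the linker histone gene Hist1h1b from 0.95 and 0.677 to 0.22 and 0.155. Not all replication genes followed: Tyms went from 1.18 and 0.701 to 0.752 and 0.732, lower in replicate 1 alone. Top2a was at 6.23 and 4.97 in the lowest group and 7.15 and 6.41 in the highest. The median depth hardly moved, from 20997 and 19851 UMIs to 21310 and 20965. Across mitotic cells the mitotic and S-phase scores had a Pearson correlation of -0.34 in replicate 1 (343 cells) and -0.28 in replicate 2 (357 cells), given as a description of cells of the same library. There were 49 and 37 mitotic cells with an S-phase score at or above that of the last S-phase cell.

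Among 4753 genes with a mean level of at least 0.2 in mitotic cells, gate genes and S-phase list left out, the correlation with the mitotic score was highest for Ccnb1 (0.52 and 0.56), Cks2 (0.53 and 0.47), Arl6ip1 (0.46 and 0.51) and Ube2s (0.47 and 0.47), a ubiquitin-conjugating enzyme of the anaphase-promoting complex. The correlation with the S-phase score was highest for Hist1h1b (0.52 and 0.54), 2810417H13Rik (0.52 and 0.50), Tcf19 (0.54 and 0.48) and Hist1h2ap (0.49 and 0.50), and lowest for Ptms, Dynll1 and Ccnb2, at -0.36 and -0.29, -0.36 and -0.25, and -0.32 and -0.28. Ccna2 was at 1.71 and 1.46 in the lowest of the 4 score groups and at 2.53 and 2.83 in the highest.

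Below the selected cells the replication gene Pcna first stood higher and then lower. In gated cells with a score between 0 and the last mitotic cell, 378 and 435 cells, Ccnb1 was at 0.343 and 0.323, Top2a at 4.89 and 3.98 and Pcna at 1.01 and 0.857. In cells with none of the 6 genes Ccnb1 was at 0.0258 and 0.0369, Top2a at 0.161 and 0.139 and Pcna at 0.165 and 0.143. The matrix gene Bgn was at 22.1 in replicate 1 and 18.0 in replicate 2 where none of the genes was detected, 8.51 and 6.94 in the band from 0 to the last mitotic cell, and 5.72 and 4.13 in the highest-scoring mitotic cells. Mxd4 was already at 0.37 and 0.337 in that band, close to the levels of the mitotic cells.

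**Figure D5:**
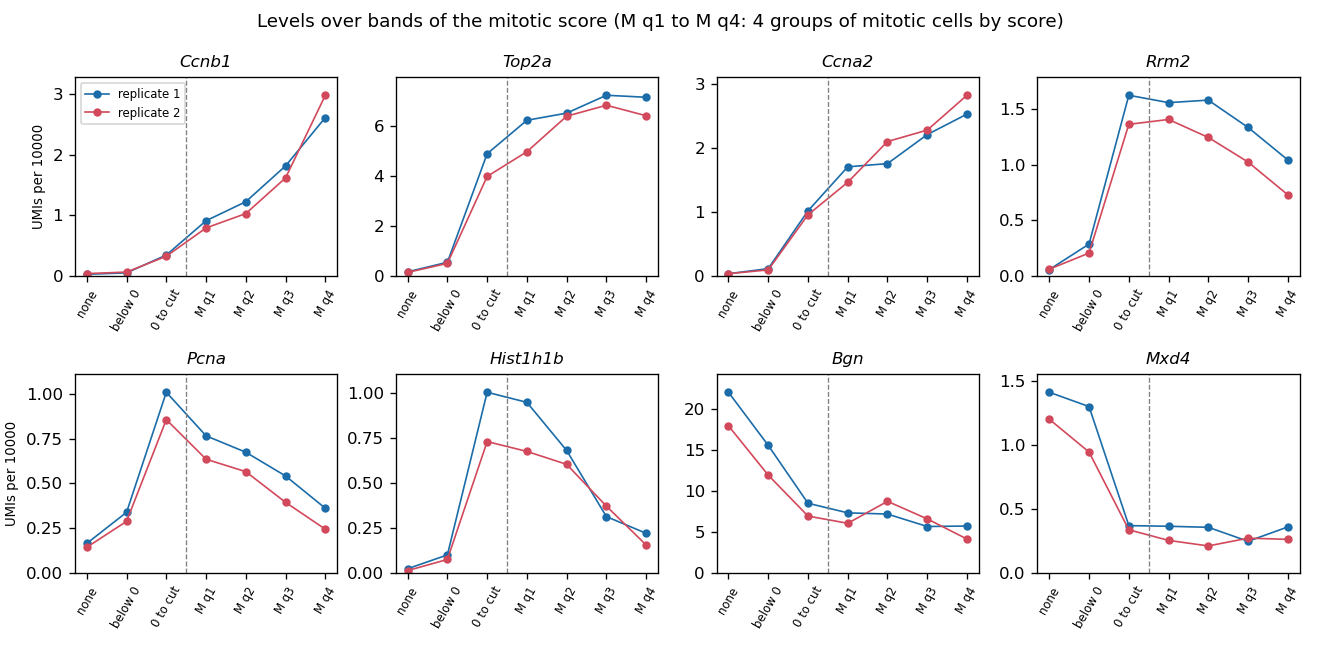
Mean level in UMIs per 10000 UMIs of 8 genes over 7 bands of the mitotic score: gated cells with none of the 6 genes, with a score below 0, from 0 to the last mitotic cell, and 4 groups of the mitotic cells (M q1 to M q4), for each library, with a dashed line where the mitotic cells begin. Ccnb1 climbs to 2.61 and 2.98 in M q4, Pcna and Hist1h1b peak before the line, and Bgn and Mxd4 are highest in cells with none of the 6 genes and low from the band next to the line onward.

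Of 8 epithelial genes tested, Epcam and Gpx2 differed most between the libraries. Epcam, an epithelial adhesion gene, was at 0.668 and 0.0597 in mitotic cells, where the other gated cells had 0.149 and 0.0247. In replicate 1 28 of 343 mitotic cells, 8.16% (exact 95% interval 5.49% to 11.6%), had 3 or more Epcam UMIs and held 92.3% of them, against 3 of 357 cells, 0.84% (0.174% to 2.44%), in replicate 2. In the other gated cells 61 of 2606 (2.34%) and 6 of 3160 (0.19%) did, at lower depth. Gpx2, a glutathione peroxidase of epithelia, was at 0.338 and 0.00715. Msln (mesothelin) stood the other way, at 0.127 and 0.164, and Krt18, a keratin, at 0.175 and 0.2. Of the 8 genes 1 was higher in both libraries, beside 5.79% of all genes. It was Cldn3, at 0.213 and 0.161 against 0.0518 and 0.0713. Cldn3 and Epcam reached the minimum level only through the mitotic cells. Of the 8 genes 5 reached it in the other gated cells alone, and 0 of those were higher. Xist, the RNA of the inactive X chromosome, was at 4.65 and 3.64 in mitotic cells against 4.79 and 5.32, and at 0.657 and 0.121 outside the gate. The Y-linked genes Ddx3y and Eif2s3y were also detected, with log2 folds of -0.03 and -0.13 in mitotic over other gated cells. The labels do not give the sex of the cells, and its part in the Xist levels was not tested.

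The promoter elements shown above were counted over the genes that were higher. A window was found for 5738 of the 7132 tested genes (80.5%) and for 346 of the 413 higher genes (83.8%). A CHR was present in 14.2% of the windows of all tested genes and 37.4% of those of the higher genes, and in 19.2% of all 32851 windows of the table. A CCAAT box was present in 37.9%, 57.9% and 37.4%, and both together in 5.77%, 26.1% and 7.52%. An E2F element, searched as TTTCGCGC or TTTGGCGC on either strand, was present in 1.65%, 4% and 0.813%. Some genes have several windows. The same count is void for the genes that were lower, for those with a mean log2 fold of at least 2 and for the S-phase list, because windows were matched for 69.5%, 74.1% and 73.5% of them, under the 80% needed.

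Of the 15 genes with the highest fold 12 had a window, 8 of them with a CHR and 10 with a CCAAT box. No window was matched for Ccna2, Fam64a and Tpx2. Nusap1 and Birc5 had neither motif. The CHR lay within 35 bases of the start in Cdca3 (31), Prc1 (-5 and -30 in its 2 windows), Hmmr (9), Aurka (33), Cdca8 (14), Plk1 (31) and Ccnb2 (5), where the start itself is position 1. Of the 6 selecting genes 4 had a CHR, Cenpa (17), Cdc20 (-18), Ube2c (-29) and Cenpf (3), and 5 had a CCAAT box. A match is a description of the sequence and does not show a bound site.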

How the data were processed

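Single-cell 3' RNA-seq (10x Chromium v2) of 2 libraries of day 16 STEMCCA cells was analysed. According to the study's methods and processing notes the authors used Cell Ranger (version 2.1.1) with mm10 and Seurat, and filtered cells to between 1500 and 6000 genes and below 9% mitochondrial RNA. The deposited values are natural log values of 1 plus UMIs per 10000. On a linear scale, dividing by each cell's lowest value gave whole numbers in 100% of cases (tolerance 0.01), so UMIs were recovered, 4753 to 60990 per cell. The table holds 17408 genes and 7023 cells, assigned to libraries by barcode prefix. No doublet caller was run, and the sources used here do not mention doublet removal.

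The members, the 26 gene lists and the comparisons were chosen with earlier results of these data known. Levels were means over cells, folds were log2(level + 0.1), genes needed a mean of 0.1 over the 4 profiles of mitotic and other cells, and a call was 1.5-fold in the same direction in both libraries. No p-value was computed: the score used the same cells, and a sign-flip test over 2 libraries cannot go below 0.5. Intervals are exact (Clopper-Pearson) and cover counting error only. Named genes were the selecting genes, the 15 highest and 15 lowest called, the 4 largest of each list and a fixed set. Genes named as short of a limit, along scores or against S-phase or outside-gate cells were chosen after their values were seen. Bands replaced equal parts of the score range because 42.8% of gated cells tie. Gene places are GENCODE M21 (GRCm38, which mm10 denotes), and promoter windows are RefSeq GRCm38.p6, matched by symbol (5520 genes) or older symbol (218). Scripts ran under Python 3.11.15, using scipy 1.17.1 for intervals, pandas 2.3.3 and numpy 2.4.6.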

Additional observations from a re-analysis of the deposited data

How the results depend on the processing

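No paired analysis was possible because both libraries are in 1 group and no result comes from a test. The genes higher and lower in mitotic cells, 413 and 233, came to 103 and 22 with a pseudocount of 1, 199 and 97 with a mean level of at least 0.5, 178 and 45 at 2-fold, and 2164 and 60 with mean UMIs per cell, a scale chosen after seeing the data on which the median of all genes is at 0.43. With a pseudocount of 0.01 there were 419 lower genes, and with depth-weighted other cells 101. With either library left out, 476 to 504 genes were higher and 283 to 406 lower, a single library having to pass the limit once. The G2/M median of 2.08 was 2.82 and 0.78 with pseudocounts of 0.01 and 1, 2.37 with a mean of 0.5, 1.76 depth-weighted, 2.32 without S-phase cells among the others, 1.90 from summed UMIs and 2.55 per cell. It ran from 2.02 to 2.13 without either library.

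The S-phase median of 0.60 was 0.78 and 0.18 with pseudocounts of 0.01 and 1, 0.56 with no minimum level, 0.98 with a mean of 0.5, 0.35 and 1.196 with 350 and 1400 mitotic cells, 0.58 with scores within libraries, 1.05 among cells with none of the pluripotency genes, 0.67 with the thinned score, 0.27 depth-weighted, 1.07 without S-phase cells, 0.65 without the 5% deepest cells, 0.46 from summed UMIs, 0.89 per cell and 0.61 with the minimum on other cells. It was 0.60 to 0.61 without either library. The UMI ratio of 1.51 was 1.58 both with none of the pluripotency genes and without S-phase cells, and 1.46 to 1.55 without either library. Neither of these 2 medians changed direction under the alternatives run. Depth-weighted, the median of the G1 list went from 0.04 to -0.17 and the 1 endothelial gene tested from -0.01 to 0.01. The difference in share kept its direction, from -0.46 to -2.21 points. Depth limits genes under 0.1 UMIs per 10000, such as Ccne2 and Cdc6.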

Other observations

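Most genes that differed belonged to none of the lists, 246 of the 413 higher and 185 of the 233 lower, and the genes named here were picked after their values were seen. The long non-coding RNA Lockd was among the highest, at 4.05 and 4.03 in mitotic cells of replicate 1 and replicate 2 against 0.505 and 0.552 in the other gated cells. The MYC-network repressors Mxd3 and Mxd4 stood at opposite ends. Mxd3 was at 0.662 and 0.648 against 0.0848 and 0.069, and Mxd4 at 0.334 and 0.25 against 1.22 and 0.989. Mxd3 reached the minimum level only through the mitotic cells. In S-phase cells Mxd3 was at 0.408 and 0.37 and Mxd4 at 0.346 and 0.294. Ezh2, the Polycomb methyltransferase, was at 1.11 and 1.17 against 0.353 and 0.323.

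The nuclear RNAs Malat1 and Neat1 were both lower. Malat1 was at 227 and 212 in mitotic cells against 441 and 402, and at 525 and 453 UMIs per cell against 651 and 538. Neat1 was at 0.888 and 0.886 against 1.79 and 1.96. Txnip, Ypel3 and Pik3ip1, genes often linked to resting cells, were lower as well, Txnip at 0.415 and 0.534 against 1.09 and 1.23, Ypel3 at 0.8 and 0.945 against 2.14 and 2.21, and Pik3ip1 at 0.215 and 0.229 against 0.565 and 0.62. All of these kept their call in the depth-weighted comparison.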
